A study of Mus musculus with 6 samples.

Results

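Glycolysis, pyruvate and glycogen genes are described here in RNA sequencing of whole mouse hearts. They are 34 genes named by symbol, taken from a table of 20254 genes by matching each Ensembl identifier to its GENCODE symbol. No cut on a measured value was used to choose them, but earlier results of these data were known. All 34 were found, on 35 rows, because Aldoa has a second identifier annotated upstream of the main one; that row stayed between 0 and 3.81 and was left out by the filter on low values. The other 34 rows passed that filter, which asked for 3 or more libraries at a value of at least 10 and kept 13823 genes of the table. The hearts came from C57BL/6 mice in which Trdn-as was knocked out (KO, 3 libraries) and from wild-type mice of the same strain (WT, 3 libraries). Trdn-as is by its name a transcript antisense to Trdn, the gene of triadin; the knockout allele is not described further in the labels. In each genotype replicates 1 and 2 were taken at 14 months and replicate 3 at 5 months, so a genotype at 5 months is 1 heart. Each library is a flash-frozen heart as labelled, and nothing in the labels says whether animals were littermates or whether tissue was pooled.

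Glycolysis splits glucose into pyruvate in the cytosol. Pyruvate is then either reduced to lactate by lactate dehydrogenase or carried into mitochondria, where the pyruvate dehydrogenase complex turns it into acetyl-CoA. Glycogen is the cell's store of glucose, built by glycogen synthase and branching enzyme and broken down by glycogen phosphorylase. The adult heart burns mainly fatty acids and takes a smaller part of its energy from glucose, lactate and glycogen, with pyruvate dehydrogenase kinases holding back glucose oxidation when fatty acids are plentiful.

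The values are normalized gene-level signals, not whole reads, with column totals of 19.8 to 23.5 in units of 1e6. Mitochondrially encoded genes took 41.6 to 49.4% of a library in KO hearts and 40.0 to 45.6% in WT hearts. Without them the total was 10.9 to 11.6 in KO hearts and 11.1, 11.3 and 14.1 in WT hearts, in units of 1e6, and the highest was the 5-month WT library. By Y-linked genes replicate 2 read as female in both genotypes and the others as male, so no 5-month heart was female. Trdn stood at 3429, 3460 and 5606 in KO hearts, against 5702, 5600 and 9104 in WT hearts, lower in KO at each age; Trdn-as itself was not analysed here. Cardiac muscle markers (10 genes such as Myh6, Tnnt2 and Myl2) summed to 661539, 754777 and 729803 in KO hearts, against 702902, 736021 and 1271386 in WT hearts, so all libraries carried the labelled tissue and the 5-month WT library carried the most. In whole hearts, fewer cells of a type and less RNA per cell cannot be told apart.

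Levels were compared after each value was divided by the length of the gene's principal transcript and averaged over the 6 libraries. Gapdh, the dehydrogenase that makes NADH in mid-pathway, was the highest at 36392 per kilobase. It was followed by Aldoa, the muscle aldolase, at 18382 per kilobase and by Ldhb, the heart form of lactate dehydrogenase, at 13373 per kilobase. The enolase Eno3 (8807), the carrier subunit Mpc1 (8227) and the dehydrogenase subunits Pdha1 (6218) and Pdhb (6200) came next. The ranges of Eno3 and Mpc1 over libraries, 6860 to 14123 and 6265 to 13559 per kilobase, overlapped, as did those of Pdha1 and Pdhb. The lowest were Pfkfb1 at 165 per kilobase, a bifunctional enzyme that sets the level of a phosphofructokinase activator, and Phka1 at 104 per kilobase, the muscle regulatory subunit of phosphorylase kinase. Per length the most abundant gene of each step was Gpi1 among the hexokinases and the isomerase, Pfkm among the phosphofructokinases and their regulators, Ldhb, Mpc1, Pdha1, Pdk2 among the listed kinases, Ugp2 for glycogen synthesis and Pygm for its breakdown.

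**Figure D1:**
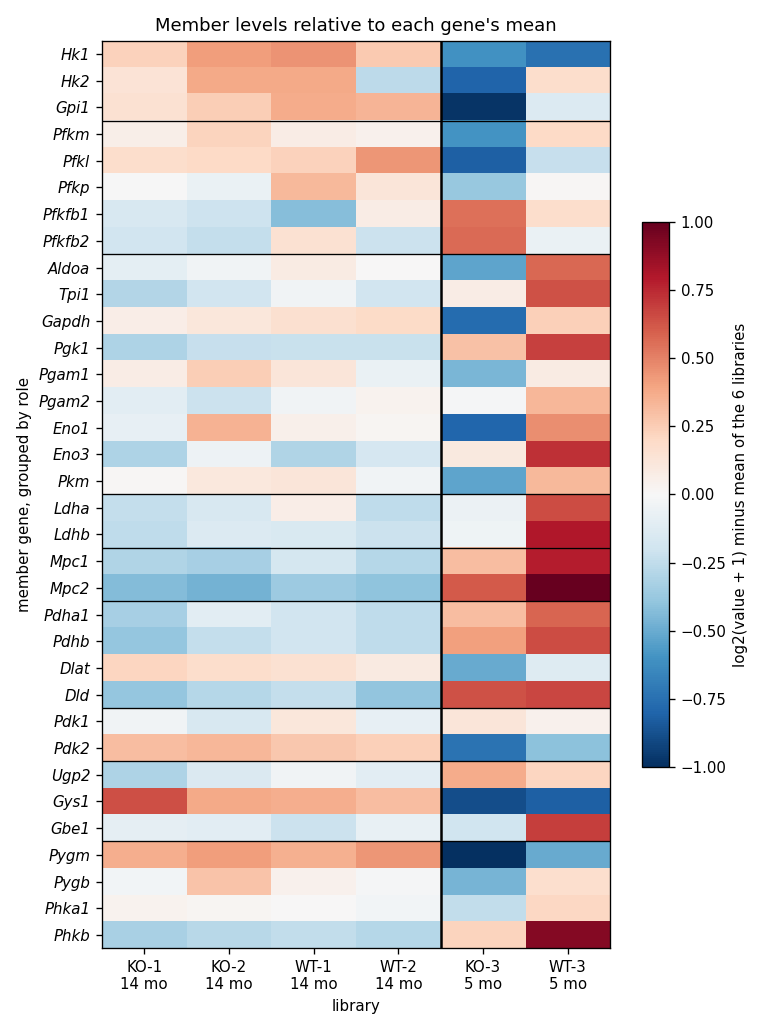
Each row is a gene, grouped by role, and each column a library; colour gives log2(value + 1) minus that gene's mean over the 6 libraries, with values past -1 or 1 in the end colours. The 4 libraries of 14 months look alike, while the 5-month KO and WT libraries differ both from them and from each other.

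KO and WT hearts were compared to ask whether loss of Trdn-as altered these genes. No gene of the 34 passed the test: 0 were called at an adjusted p under 0.05, as were 0% of all 13823 genes tested. The test was limma, a linear model on log2(value + 1) across all genes with age as a covariate, with Benjamini-Hochberg adjustment over all genes. Unadjusted p was under 0.05 for 2 of the 34 genes, Pfkp (0.0299) and Gpi1 (0.0383), and for 841 genes of the table. The log2 difference, KO minus WT, was below 0 for 30 of the 34 genes, with a median of -0.20, beside 7455 of 13823 and a median of -0.02 over all genes tested. That median was -0.03 in 14-month hearts alone and -0.51 between the 5-month hearts, with the 5-month pair the lowest of the 3 same-number pairs (medians of -0.10, 0.0096 and -0.51 for replicates 1, 2 and 3).

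The largest difference was at Aldoa (chr7:126795234-126800751, minus strand, mm10), which had values of 24854, 25908 and 18508 in KO hearts, against 28213, 26646 and 39707 in WT hearts. Every KO value lay under every WT value, and the gap was widest at 5 months. The log2 difference was -0.44 (SE 0.20, 95% interval -0.90 to 0.02, limma adjusted p = 0.745). Gapdh (chr6:125161715-125166467, minus strand) had values of 49970, 51657 and 27935 in KO hearts, against 53489, 54501 and 56350 in WT hearts. Here too the genotypes did not overlap, with the 5-month KO heart far under the rest; the log2 difference was -0.40 (SE 0.19, limma adjusted p = 0.745).

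Pfkp, the platelet form of phosphofructokinase, had values of 755, 722 and 582 in KO hearts, against 946, 823 and 763 in WT hearts. It was the third gene whose genotypes did not overlap, at a log2 difference of -0.30 (SE 0.11, 95% interval -0.57 to -0.04, limma adjusted p = 0.745). Those 3 genes with all KO values below all WT values stand beside 2.89% of all genes tested, and none of the 34 had all KO values above, beside 2.88%. Gpi1, which interconverts the phosphates of glucose and fructose, had values of 8123, 8686 and 3709 in KO hearts, against 9477, 9249 and 6670 in WT hearts. Within each age KO lay under WT, but the genotypes overlapped once ages were mixed, and the log2 difference was -0.39 (SE 0.16, limma adjusted p = 0.745).

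Eno1, the enolase of most tissues, had values of 1742, 2346 and 1062 in KO hearts, against 1909, 1872 and 2545 in WT hearts. The genotypes overlapped at 14 months and parted at 5 months; the log2 difference was -0.36 (SE 0.26, limma adjusted p = 0.751) and turned to 0.10 when either 5-month library was left out. Ldha, the muscle form of lactate dehydrogenase, had values of 6405, 6755 and 7265 in KO hearts, against 7923, 6343 and 11892 in WT hearts, which overlap, at a log2 difference of -0.31 (SE 0.16, limma adjusted p = 0.745). When either 5-month library was left out the difference was -0.11 for Aldoa, -0.09 for Gapdh, -0.16 for Gpi1, -0.11 for Ldha and -0.26 for Pfkp. In 14-month hearts, 4 of the 34 genes had both KO values above both WT values, beside 17.2% of all genes tested. Another 11 had both below, beside 17.9%, among them Gapdh, Pgk1, Tpi1, Mpc1 and Mpc2. In the fit over hearts of both ages, 95% intervals of the genotype difference ran from -0.96 to 0.51 over the 34 genes.

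Hearts of 14 months and of 5 months were compared because the labels give both ages in both genotypes. Age differences ran in both directions. Hexokinase Hk1, glycogen synthase Gys1, muscle phosphorylase Pygm, the isomerase Gpi1, the liver form of phosphofructokinase Pfkl, the kinase Pdk2 and the complex subunit Dlat were higher at 14 months. The pyruvate carrier (Mpc1, Mpc2), 3 subunits of the pyruvate dehydrogenase complex (Pdha1, Pdhb, Dld), the glycolytic enzymes Pgk1, Eno3 and Tpi1, and Ugp2 and Phkb of glycogen metabolism were lower. In all 17 of the 34 genes passed the threshold, 7 higher and 10 lower, beside 33.7% of all genes tested, 17.7% higher and 16% lower. The median log2 difference, 14 minus 5 months, was -0.08 over the 34 genes and 0.02 over all genes tested. All 14-month hearts lay above both 5-month hearts in 7 of the 34 genes, beside 25.7% of all genes, and below both in 12, beside 25%; the 19 genes without overlap are a share near the 50.7% of all genes. Within KO hearts 25 of the 34 genes passed, 15 higher at 14 months (17.7% of all genes) and 10 lower (14.8%), of 32.5% in either direction. Within WT hearts 20 passed, 6 higher (16.5% of all genes) and 14 lower (16.4%), of 32.9%; with 1 heart of 5 months in each, that heart was assumed to vary like the 14-month ones. Total scaling without mitochondrially encoded genes turned the split to 12 higher and 9 lower, and quantile normalization to 11 higher and 8 lower. That total scaling also moved the median of all genes upward. Shares of all genes called under alternative settings are not given here. Without the 5-month WT library 15 genes were higher and 10 lower; without the 5-month KO library 6 were higher and 14 lower.

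Markers of some other cells also differed by age, and their part in these differences was not tested. Their counts stand beside 33.7% of all genes called by age, 17.7% higher and 16% lower. Ages did not overlap in 50.7% of all genes tested. Atrial markers (6 genes) summed to 14186 to 27633 at 14 months, against 41185 in the KO heart and 64898 in the WT heart at 5 months, with no overlap. Endothelial markers (8 genes) summed to 13687 to 17631 at 14 months, against 10480 in the KO heart and 12400 in the WT heart at 5 months. Gene by gene, 5 of 10 cardiac muscle markers were called lower and 1 higher at 14 months (median log2 difference -0.59), 4 of 8 fibroblast markers higher (median 0.49), 4 of 8 endothelial markers higher and 1 lower, and 4 of 6 atrial markers lower. Calls in the other lists were 2 of 8 macrophage and 1 of 8 smooth muscle markers higher, 1 of 9 adipocyte markers lower and 0 of 5 erythroid markers. Counted in either direction, each of these shares was under that of all genes. Skeletal muscle markers, of which 11 of 12 were in the table and 4 passed the filter, summed to 1312 to 5200 at 14 months, against 1726 (KO) and 1688 (WT) at 5 months, and overlapped.

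**Figure D2:**
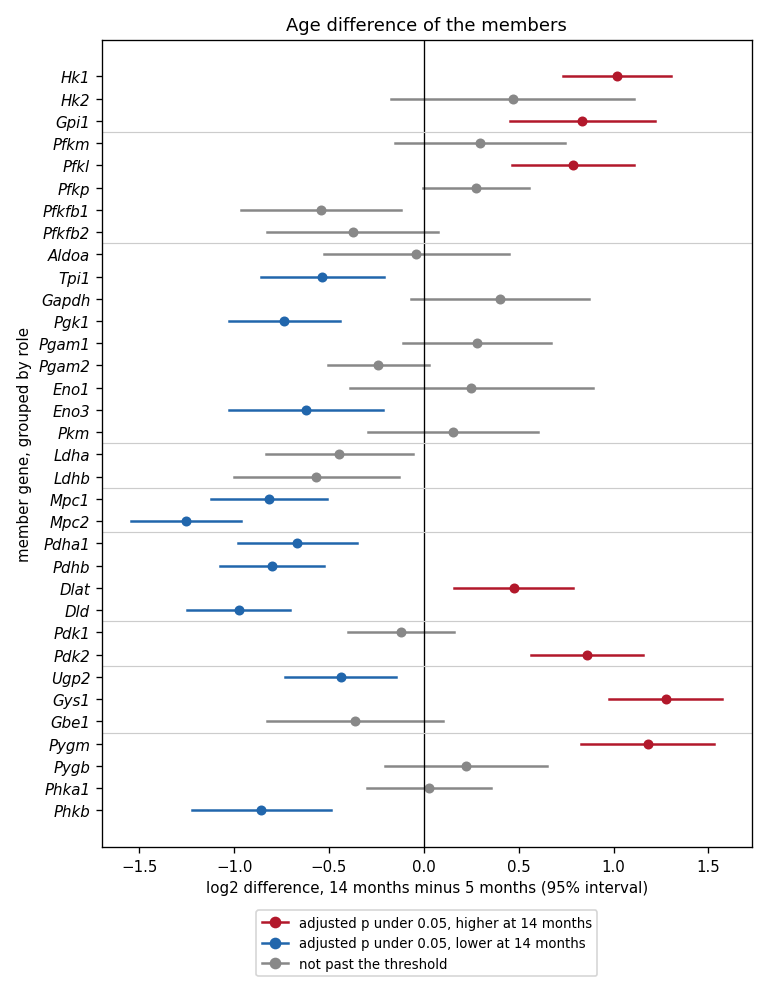
Points give each gene's log2 difference, 14 months minus 5 months, from the limma fit with genotype as a covariate, and bars its 95% interval; red and blue mark adjusted p under 0.05, higher or lower at 14 months. Gys1 at 1.28 and Mpc2 at -1.25 lie at the ends, and the lactate dehydrogenases, the carrier and most of the dehydrogenase complex lie left of 0.

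At the entry of glucose, hexokinase traps it as a phosphate. Hk1 (chr10:62268855-62379908, minus strand) had values of 2176 and 2468 in KO and 2530 and 2216 in WT at 14 months, against 1215 in KO and 1101 in WT at 5 months. All 14-month values lay well above the 5-month ones, with KO and WT overlapping at 14 months (log2 difference 1.02, SE 0.12, 2.02-fold, limma adjusted p = 0.00114). Hk2, the insulin-responsive form of muscle, had values of 3034 and 3600 in KO and 3588 and 2301 in WT at 14 months, against 1583 in KO and 3132 in WT at 5 months. The ages overlapped and the 5-month KO heart was lowest (log2 difference 0.47, 95% interval -0.17 to 1.11). Gpi1, whose values are given above, was higher in all 14-month hearts (log2 difference 0.83, SE 0.17, 1.78-fold, limma adjusted p = 0.00734).

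Phosphofructokinase is the main control point of glycolysis, and its liver-form gene Pfkl had values of 1521 and 1552 in KO and 1583 and 1832 in WT at 14 months, against 764 in KO and 1147 in WT at 5 months. The ages did not overlap (log2 difference 0.79, SE 0.14, limma adjusted p = 0.00453). The muscle form Pfkm, the most abundant of them, did not pass, at 0.29 (95% interval -0.15 to 0.74), nor did Pfkp, at 0.28. Of the bifunctional enzymes, Pfkfb1 ranged from 209 to 295 at 14 months, against 410 in KO and 316 in WT at 5 months, without overlap but short of the threshold (limma adjusted p = 0.0516). Pfkfb2, the heart form that insulin and adrenaline signals act on, ranged from 1042 to 1365 at 14 months, against 1819 in KO and 1176 in WT at 5 months, which overlap.

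In the later steps of glycolysis the age differences ran downward where they passed. Pgk1, which makes the pathway's early ATP (chrX:106187100-106203699, plus strand), had values of 4358 and 4603 in KO and 4610 and 4613 in WT at 14 months, against 6597 in KO and 8672 in WT at 5 months. The 14-month hearts were close together and all under both 5-month hearts (log2 difference -0.73, SE 0.13, 0.601-fold, limma adjusted p = 0.0041). Eno3, the muscle enolase, had values of 10022 and 11998 in KO and 10129 and 11080 in WT at 14 months, against 13343 in KO and 20634 in WT at 5 months. The 5-month WT heart stood well above the KO heart of that age (log2 difference -0.62, SE 0.18, limma adjusted p = 0.0290). Tpi1, the triose isomerase, had values of 5990 and 6417 in KO and 7171 and 6444 in WT at 14 months, against 7725 in KO and 11450 in WT at 5 months, again highest in the 5-month WT heart (log2 difference -0.53, SE 0.14, limma adjusted p = 0.0217). In the fit with the replicate number as a block the calls of Eno3, Tpi1, Dlat and Ugp2 were lost, at limma adjusted p = 0.0538, 0.0556, 0.0712 and 0.0768 in that order. Over 19 alternative settings Eno3, Tpi1 and Dlat each kept the call in 11, and Ugp2 in 8.

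The other 6 genes of that stretch did not pass. Pgam1, the brain-form mutase, ranged from 924 to 1145 at 14 months, against 705 in KO and 1025 in WT at 5 months. The muscle form Pgam2 ranged from 3889 to 4628 at 14 months, against 4498 in KO and 5678 in WT at 5 months. Both overlapped between ages, as did Aldoa, Gapdh, Eno1 and Pkm, where the 5-month KO and WT values lay on opposite sides of the 14-month ones. The lactate dehydrogenases came just short, Ldhb at a log2 difference of -0.57 (SE 0.19, limma adjusted p = 0.0509) and Ldha at -0.44 (SE 0.17, limma adjusted p = 0.0760).

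The pyruvate carrier, a pair of small proteins in the inner mitochondrial membrane, was lower at 14 months in both subunits. Mpc2 (chr1:165460637-165481214, plus strand) had values of 2231 and 2180 in KO and 2352 and 2286 in WT at 14 months, against 4618 in KO and 6287 in WT at 5 months. The 4 older hearts were close together, and the difference was the largest downward one of the 34 genes (log2 difference -1.25, SE 0.13, 0.420-fold, limma adjusted p = 0.000603). Mpc1 had values of 6004 and 5883 in KO and 6540 and 6060 in WT at 14 months, against 9130 in KO and 12732 in WT at 5 months. It showed the same order of libraries (log2 difference -0.82, SE 0.13, 0.567-fold, limma adjusted p = 0.00329).

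The pyruvate dehydrogenase complex did not move as a unit. Dld, the dehydrogenase it shares with other complexes (chr12:31331277-31351453, minus strand), had values of 5496 and 5877 in KO and 6102 and 5466 in WT at 14 months, against 11163 in KO and 11396 in WT at 5 months. Here the 5-month hearts matched each other (log2 difference -0.98, SE 0.12, 0.508-fold, limma adjusted p = 0.00108). Pdhb, the beta subunit of its decarboxylase, had values of 6908 and 7652 in KO and 7908 and 7583 in WT at 14 months, against 12019 in KO and 14214 in WT at 5 months (log2 difference -0.80, SE 0.12, limma adjusted p = 0.0024). Pdha1, the alpha subunit that the kinases phosphorylate, had values of 13686 and 15975 in KO and 15078 and 14413 in WT at 14 months, against 21315 in KO and 25794 in WT at 5 months (log2 difference -0.67, SE 0.14, limma adjusted p = 0.00806). In both subunits all 14-month hearts lay under both 5-month hearts. Dlat, the acetyltransferase core, went the other way, with values of 6244 and 6058 in KO and 5956 and 5710 in WT at 14 months, against 3786 in KO and 4911 in WT at 5 months (log2 difference 0.47, SE 0.14, limma adjusted p = 0.0301).

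Of the kinases that switch the complex off, Pdk2 (chr11:95026258-95041354, minus strand) had values of 5170 and 5239 in KO and 5016 and 4925 in WT at 14 months, against 2504 in KO and 3129 in WT at 5 months. The 4 older hearts fell within a narrow band above both younger ones (log2 difference 0.86, SE 0.13, 1.82-fold, limma adjusted p = 0.00231). Pdk1 had values of 3109 and 2849 in KO and 3432 and 3012 in WT at 14 months, against 3451 in KO and 3279 in WT at 5 months, which overlap (log2 difference -0.12, 95% interval -0.40 to 0.16).

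Glycogen genes held the largest upward differences. Gys1, muscle glycogen synthase (chr7:45434844-45456619, plus strand), had values of 2180 and 1815 in KO and 1792 and 1722 in WT at 14 months, against 753 in KO and 791 in WT at 5 months. Every older heart stood far above both younger ones (log2 difference 1.28, SE 0.13, 2.42-fold, limma adjusted p = 0.000623). Pygm, muscle glycogen phosphorylase (chr19:6384399-6398459, plus strand), had values of 16338 and 16963 in KO and 16323 and 17235 in WT at 14 months, against 6053 in KO and 8993 in WT at 5 months. Older hearts were close to each other and the 5-month KO heart was lowest (log2 difference 1.18, SE 0.15, 2.26-fold, limma adjusted p = 0.00137). RNA of the synthesis gene Gys1 and of the breakdown gene Pygm was thus higher at 14 months, while Ugp2 and Phkb, of the same roles, were lower.

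Phkb, the beta subunit of the kinase that activates phosphorylase, had values of 776 and 801 in KO and 819 and 798 in WT at 14 months, against 1137 in KO and 1840 in WT at 5 months. It was lower in every older heart (log2 difference -0.86, SE 0.16, 0.552-fold, limma adjusted p = 0.00559). Ugp2, which makes the UDP-glucose that glycogen synthase uses, had values of 3588 and 4020 in KO and 4327 and 4122 in WT at 14 months, against 5744 in KO and 5132 in WT at 5 months, without overlap (log2 difference -0.44, SE 0.13, limma adjusted p = 0.0313). Branching enzyme Gbe1 ranged from 737 to 812 at 14 months, against 744 in KO and 1380 in WT at 5 months, and brain-form phosphorylase Pygb from 9004 to 11205, against 6666 in KO and 10303 in WT. Phka1 ranged from 623 to 651 at 14 months, against 536 in KO and 734 in WT at 5 months. These 3 genes did not pass, and each had a 5-month WT value above its 5-month KO value.

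The genotype difference was next compared between ages, by an interaction term that sets the KO minus WT difference at 14 months against that at 5 months. In 5 of the 34 genes it passed the threshold, all positive, beside 2.08% of all genes tested (1.19% positive, 0.883% negative): Aldoa, Gapdh, Pfkm, Pkm and Ldhb, which are abundant enzymes from phosphofructokinase to lactate dehydrogenase. In each, KO and WT were close at 14 months and KO lay far under WT in the 1 pair of 5-month hearts. At 14 months by itself KO against WT called 0 of the 34 genes, beside 0.0362% of all genes tested. The median interaction over the 34 genes was 0.44, beside 0.05 over all genes tested.

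Pfkm (chr15:98092589-98132451, plus strand) had values of 9696 and 10875 in KO, against 9837 and 9592 in WT, at 14 months, and 6173 in KO, against 10738 in WT, at 5 months. The 5-month KO heart alone stood apart (interaction 0.88, SE 0.15, limma adjusted p = 0.0405). Pkm, pyruvate kinase (chr9:59656368-59679375, plus strand), had values of 11831 and 12665 in KO, against 12806 and 11458 in WT, at 14 months, and 8131 in KO, against 14727 in WT, at 5 months. Its 5-month values lay below and above all the older ones (interaction 0.87, SE 0.15, limma adjusted p = 0.0429).

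Ldhb (chr6:142490249-142507957, minus strand) had values of 14121 and 15278 in KO, against 15119 and 14513 in WT, at 14 months, and 16279 in KO, against 29318 in WT, at 5 months. There the 5-month WT heart was the one that stood apart (interaction 0.84, SE 0.14, limma adjusted p = 0.0364). Aldoa and Gapdh, with the values given above, had interactions of 0.99 (SE 0.13, limma adjusted p = 0.0293) and 0.92 (SE 0.13, limma adjusted p = 0.0293). Eno1 had the largest, 1.36 (SE 0.25), and Hk2 the second largest, 1.19 (SE 0.38), but neither passed (limma adjusted p = 0.0501 and 0.153).

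**Figure D3:**
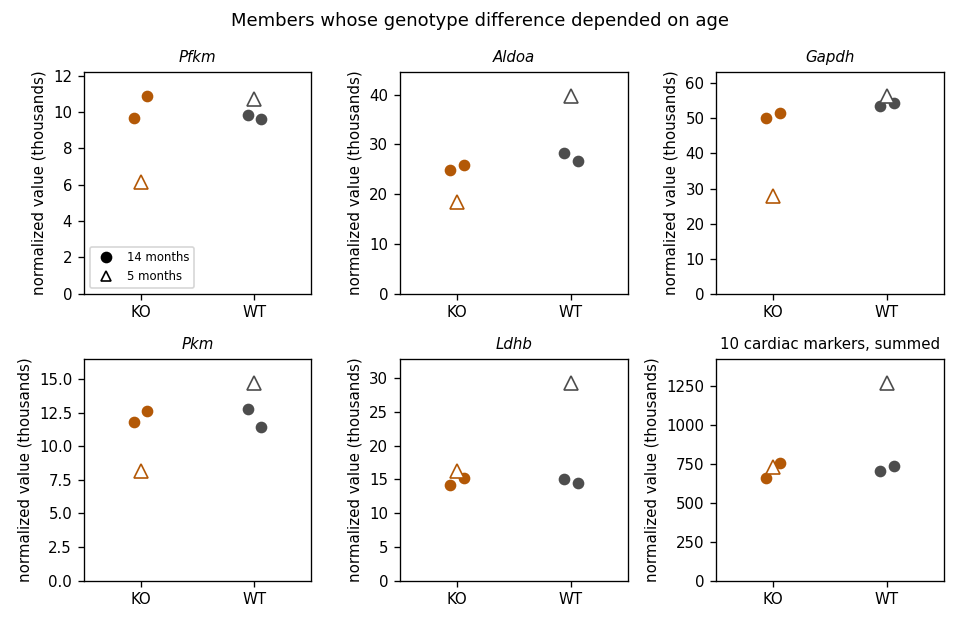
Each panel plots the normalized values, in units of 1e3, of 1 gene, or of 10 summed cardiac muscle markers, in KO and WT hearts; filled circles are 14-month and open triangles 5-month libraries. The 14-month circles of KO and WT overlap in height or nearly so, while the 5-month triangles lie far apart, KO below WT.

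Between the 5-month hearts, 29 of the 34 genes were lower in KO, beside 54.1% of all genes tested, and 14 were lower by more than 1.5 times, beside 15.3%. With 1 heart per genotype this difference has no replicate check. The 14 were Hk2, Gpi1, Pfkm, Pfkl, Aldoa, Gapdh, Eno1, Eno3, Pkm, Ldha, Ldhb, Gbe1, Pygb and Phkb, with Eno1 lowest at 0.417 of the WT value. Only Pfkfb2 of the 34 was higher in KO by more than 1.5 times, at 1.55 of the WT value, beside 14.8% of all genes tested. No subunit of the pyruvate carrier, the dehydrogenase complex or the listed kinases passed that fold in either direction, and Dld stood at 0.980 of the WT value.

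Other lists were read in the same pair of libraries, against the 15.3% of all genes lower in the 5-month KO heart by more than 1.5 times. Past that fold 11 of 20 citric acid cycle genes were lower and 5 of 25 fatty acid oxidation genes, the second a share near that of all genes. Of the markers tested, 6 of 10 for cardiac muscle, 5 of 5 erythroid, 6 of 9 adipocyte, 3 of 6 atrial and 4 of 8 each for fibroblasts, macrophages and smooth muscle were lower past it, but only 1 of 8 endothelial and 0 of 4 skeletal muscle ones. In the interaction itself, beside 2.08% of all genes, 8 of 20 citric acid cycle genes, 3 of 25 fatty acid oxidation genes, 2 of 10 cardiac muscle, 2 of 9 adipocyte and 1 of 8 fibroblast markers were called, all positive, and none of the other marker lists. The part of muscle RNA content, of scaling or of the individual hearts in the interaction was not tested. The 5 calls were lost under quantile normalization and without WT replicate 1 or WT replicate 2, where 0 genes of the 34 were called, and were kept under total scaling without mitochondrially encoded genes. Without either 5-month library the interaction cannot be estimated.

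**Figure D4:**
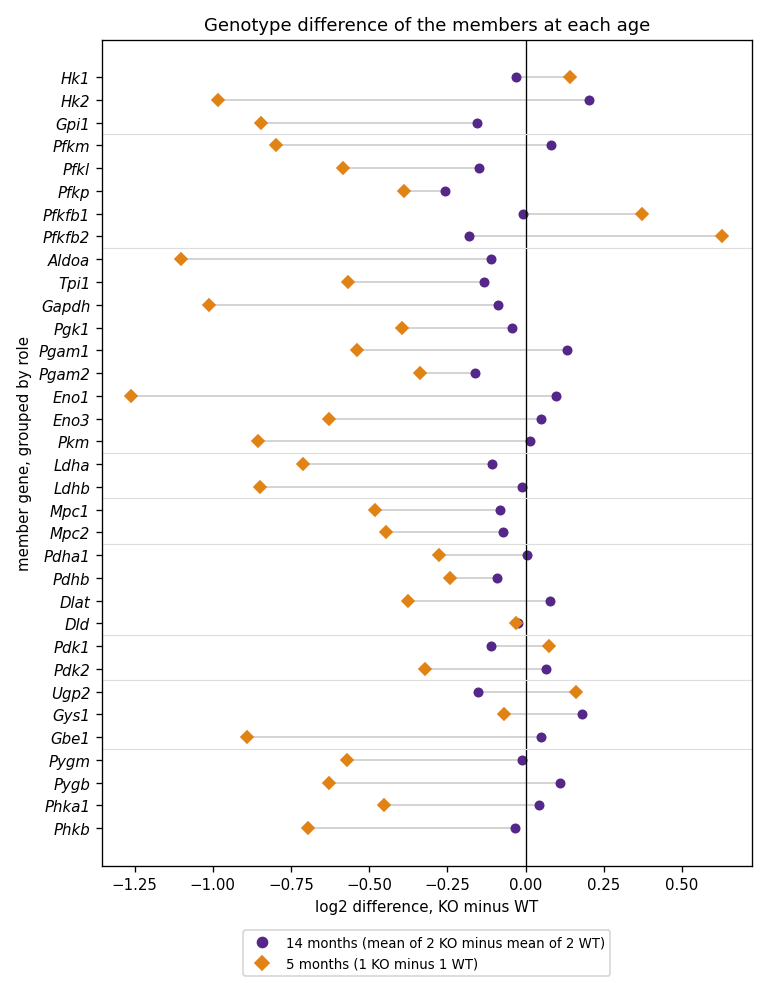
Points give each gene's log2 difference, KO minus WT, at 14 months (circles, mean of 2 KO minus mean of 2 WT libraries) and at 5 months (diamonds, 1 KO minus 1 WT library). Circles sit between -0.26 and 0.20, while 29 of the 34 diamonds lie below 0, down to -1.26 at Eno1.

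Several steps have more than 1 isoform, and the share of each per transcript length was compared between ages as a description. Pygm made up 71.2 and 67.3% of Pygm plus Pygb in KO and 70.1 and 72.0% in WT at 14 months, against 55.3% in KO and 54.3% in WT at 5 months. Pdk2 made up 79.3 and 80.9% of Pdk1 plus Pdk2 in KO and 77.1 and 79.1% in WT at 14 months, against 62.6% in KO and 68.8% in WT at 5 months. In both pairs every older heart lay above both younger ones, and being ratios within a library these shares do not depend on a library's scaling factor.

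Eno3 made up 87.6 to 89.1% of Eno1 plus Eno3 at 14 months, against 94.6% in KO and 91.8% in WT at 5 months, so the muscle form's share was lower in older hearts. Pgam2 made up 87.8 to 91.4% of the mutases at 14 months, against 93.1% in KO and 92.1% in WT at 5 months. Ldha made up 25.4 to 28.9% of the lactate dehydrogenases at 14 months, against 25.8% in KO and 24.0% in WT at 5 months, a share that overlapped between ages although both genes had higher values in the 5-month WT heart. Hk2 made up 41.4 to 49.8% of Hk1 plus Hk2 in all libraries but the 5-month WT heart, where it was 65.9%. Pfkm made up 83.2 to 88.6% of the phosphofructokinases in all 6 libraries.

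**Figure D5:**
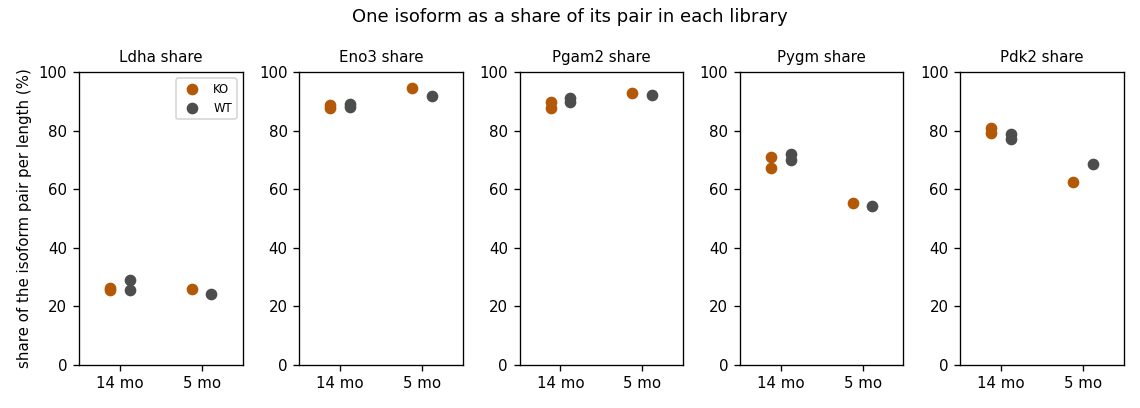
Each panel gives 1 isoform as a percentage of its pair, per transcript length, in each library by age and genotype. The Pygm and Pdk2 shares lie higher at 14 than at 5 months in all 4 older hearts, the Eno3 share lies lower, and the Ldha share overlaps.

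The kinase share changes when Pdk4 is counted. Pdk4, a fasting-induced kinase outside the 34 genes, had values of 9581, 4374 and 22557 in KO hearts, against 4926, 23762 and 7169 in WT hearts. It was high in 1 heart of each genotype, of different ages, and took 30.2 to 78.2% of all 4 kinases per transcript length. Over all 4 kinases Pdk2 made up 40.5 and 56.0% in KO and 51.5 and 22.8% in WT at 14 months, against 13.5% in KO and 33.8% in WT at 5 months, and the ages overlapped.

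Across the 34 genes Spearman's rho of the age difference with GC content was 0.563, and with transcript length 0.441. Across all genes with an annotated transcript these were 0.277 and 0.327. Over the 34 genes rho was 0.630 and 0.367 in that order within KO hearts, and 0.377 and 0.531 within WT hearts. These are descriptions across genes of the same libraries, and genes are not independent replicates. The 7 genes higher at 14 months had a median GC content of 55.3% and a median length of 3678 bases, the 10 lower ones 46.4% and 1716 bases. The part of library composition in the age differences was not tested.

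Promoter windows were read because the genes move in both directions with age and glycolytic genes are known targets of hypoxia-inducible factors, which bind a short core. The windows are RefSeq's, from 250 bases before to 50 after each annotated start (GRCm38.p6, the build of mm10), and all 34 genes matched, with 53 windows. The core ACGTG, searched on both strands, was in 18 of the 53 windows (34.0%, in 15 genes), beside 19.6% of 32851 windows of all genes. The windows of the 34 genes had a median GC content of 60.7%, beside 52.7% for all. The E-box CACGTG, which contains the core, was in 4 windows (7.55%, beside 7.15%), the nuclear receptor motif AAGGTCA in 3 (5.66%, beside 4.72%), and the MEF2 consensus in 0, beside 0.557%. A match is not a bound site. The core was in 3 of 9 windows of the genes higher at 14 months and in 3 of 12 of those lower. Shown 5′ to 3′ along the gene are windows with the core in capitals on either strand, for genes higher (Hk1, Pygm) and lower (Pdhb, Pgk1) at 14 months, and for Ldha. Its 5 core matches include 4 inside 2 E-boxes, because each E-box holds the core on both strands and was counted on each.
Hk1, chr10:62340372-62340671, minus strand: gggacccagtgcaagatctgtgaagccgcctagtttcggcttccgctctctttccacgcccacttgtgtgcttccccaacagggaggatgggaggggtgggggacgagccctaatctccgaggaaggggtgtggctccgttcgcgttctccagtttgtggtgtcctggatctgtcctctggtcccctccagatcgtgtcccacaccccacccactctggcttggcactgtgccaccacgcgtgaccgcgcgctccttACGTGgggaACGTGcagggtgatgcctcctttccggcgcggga
Pygm, chr19:6384158-6384457, plus strand: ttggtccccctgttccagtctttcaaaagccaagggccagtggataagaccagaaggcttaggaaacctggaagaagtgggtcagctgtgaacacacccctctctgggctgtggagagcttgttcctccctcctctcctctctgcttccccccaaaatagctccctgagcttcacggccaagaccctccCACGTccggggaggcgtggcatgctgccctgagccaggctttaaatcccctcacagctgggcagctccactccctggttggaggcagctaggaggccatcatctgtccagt
Pdhb, chr14:8172943-8173242, minus strand: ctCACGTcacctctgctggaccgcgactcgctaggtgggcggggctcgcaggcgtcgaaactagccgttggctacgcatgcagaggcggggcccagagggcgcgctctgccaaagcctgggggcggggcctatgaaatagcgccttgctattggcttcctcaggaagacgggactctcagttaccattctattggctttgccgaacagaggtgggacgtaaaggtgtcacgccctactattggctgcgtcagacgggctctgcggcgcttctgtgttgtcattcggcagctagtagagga
Pgk1, chrX:106186850-106187149, plus strand: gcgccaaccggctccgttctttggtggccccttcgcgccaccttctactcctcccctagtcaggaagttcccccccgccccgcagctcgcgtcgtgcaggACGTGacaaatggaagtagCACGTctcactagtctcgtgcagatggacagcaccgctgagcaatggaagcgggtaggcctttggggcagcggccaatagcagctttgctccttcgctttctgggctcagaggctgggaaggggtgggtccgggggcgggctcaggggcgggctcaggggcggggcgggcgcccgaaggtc
Ldha, chr7:46845554-46845853, plus strand: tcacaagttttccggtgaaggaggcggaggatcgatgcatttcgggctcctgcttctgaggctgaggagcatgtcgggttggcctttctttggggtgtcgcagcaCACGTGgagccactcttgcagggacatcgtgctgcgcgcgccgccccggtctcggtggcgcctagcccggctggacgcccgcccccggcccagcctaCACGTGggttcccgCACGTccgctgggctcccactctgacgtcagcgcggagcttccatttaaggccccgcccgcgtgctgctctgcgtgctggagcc
These windows were chosen because they hold the core. Hk1 and Ldha are each shown by 1 of their annotated starts, and the other window of each held no core match.

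Further genes of the same pathways were read from lists beside the 34, and their counts by age stand beside 33.7% of all genes called, 17.7% higher and 16% lower. Of 11 tested glycolytic isoforms and regulators, 1 was higher at 14 months, the ADP-dependent glucokinase Adpgk (log2 difference 0.59, SE 0.17, limma adjusted p = 0.0298), and 1 was lower, the muscle fructose bisphosphatase Fbp2 (-0.61, SE 0.18, limma adjusted p = 0.0326). The 2 most abundant, Tigar at 756 to 853 and Ldhd at 403 to 575 over the 6 libraries, did not pass. Of 11 further pyruvate genes, 3 were higher and 2 lower (45.5% called). Pcx, which turns pyruvate into oxaloacetate, had values of 532 and 753 in KO and 394 and 478 in WT at 14 months, against 196 in KO and 300 in WT at 5 months (log2 difference 1.11, SE 0.27, limma adjusted p = 0.0156). Bsg, the partner that carries lactate transporters to the membrane, ranged from 11189 to 13191 at 14 months, against 17687 in KO and 21169 in WT at 5 months (log2 difference -0.66, SE 0.12, limma adjusted p = 0.0050). Pdpr, a regulator of the phosphatase that switches pyruvate dehydrogenase on, was higher (0.57, SE 0.13, limma adjusted p = 0.0114).

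Of 20 further glycogen genes tested, 3 were higher at 14 months and 1 lower (20% called, under the 33.7% of all genes). Gaa, the lysosomal glucosidase that degrades glycogen, had values of 2163 and 2070 in KO and 2022 and 2139 in WT at 14 months, against 778 in KO and 816 in WT at 5 months. Its values were close between genotypes at each age and far apart between ages (log2 difference 1.40, SE 0.11, limma adjusted p = 0.000265). Ppp1r3d, a glycogen-targeting subunit of protein phosphatase, was higher (0.69, SE 0.18, limma adjusted p = 0.0211), and Epm2a, the glycogen phosphatase laforin, was lower (-0.59, SE 0.14, limma adjusted p = 0.0143). The phosphatase subunit Ppp1r3a, at 2432 to 5137 over the 6 libraries, was among the most abundant and did not pass. No gene of these lists was called between KO and WT or in the interaction.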

How the data were processed

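RNA was measured in 6 mouse hearts, 3 KO and 3 WT. Libraries were made from Trizol-extracted total RNA by Illumina protocols, per the labels' protocols. The submitters' processing notes name Salmon 1.5.2 and the build mm10; how transcripts were summed to genes and how libraries were scaled is not stated there. Each gene's deposited value is a normalized signal, judged from the numbers: they are not whole, and the libraries' medians of gene-wise ratios to a common mean lay near 1. Only 9.40 to 11.6% of low values were whole multiples of a step inferred for each library (tolerance 0.01), too few to turn values back into reads. The steps imply depths, in units of 1e6 reads, of 22.3 to 23.3 at 14 months, against 19.0 in KO and 18.9 in WT at 5 months. By this estimate depth was lower in both 5-month libraries. The estimate is uncertain, because few low values were multiples of the step. The part of depth in the age differences was not tested. Because the values are not counts, no count test was used. No confidence interval from counting is given for the same reason.

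Of 20254 genes, 20122 identifiers matched GENCODE M21 (GRCm38) and 132 did not; 108 broken lines held no values. No library was a duplicate: in the closest pair 4.68% of genes agreed to within 1%. Genes at 10 or more in at least 3 libraries were tested (13823, with 6431 left out) with limma 3.58.1 in R 4.3.3, trend and robust options, on log2(value + 1), threshold 0.05 after Benjamini-Hochberg adjustment. Log2 differences on this scale understate changes of low genes. KO against WT had age as a covariate, 14 against 5 months had genotype (3 residual degrees of freedom), and the interaction had both (2). SE is limma's moderated standard error. The script was tested on simulated data. Replicates are separate samples by their labels; whether p-values also cover separate animals is not stated.

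Replicate numbers are shared between genotypes in the titles, with no pairing stated. Correlations of same-number deviations from genotype means were 0.390, 0.383 and 0.617, but the number holds age, and at 14 months with age removed the value was 0.0147. A replicate block was therefore kept as an alternative (2 residual degrees of freedom). Near-identical copies of Aldoa, Gapdh, Eno1 and Ldha in the table reached at most 48.6 (Eno1b), and reads shared with them could have been split.

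The 34 genes and the other lists were chosen with earlier results of these data known, so no test was made over a list. Every one of the 34 is accounted for; values in every library go to genes past a threshold, those of largest difference, isoform pairs and the most abundant gene of each role. From the other pathway lists, genes past the threshold (up to 3 per list and comparison) and the 2 most abundant are named, except 1 gene that is not reported here. Lengths and GC content are medians over GENCODE principal transcripts, and promoter windows are RefSeq's for GRCm38.p6. Alternatives were other pseudocounts (0.5, 5), filters, scalings, limma without trend and robust, limma-voom, the block, other covariates, 1 age or genotype alone and leaving out each library.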

Additional observations from a re-analysis of the deposited data

Results flagged for a closer look

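In 5 genes the KO minus WT difference itself differed between ages by the interaction test, with log2 values at 14 months minus 5 months of 0.99 for Aldoa, 0.92 for Gapdh, 0.88 for Pfkm, 0.87 for Pkm and 0.84 for Ldhb. The 5-month difference in each is 1 KO heart against 1 WT heart. Among the 4 hearts of 14 months, Pfkfb2 had 1 heart far above the rest, 1365 in WT replicate 1. Pgk1 had 1 far below the rest, 4358 in KO replicate 1, although that gap is small beside its age difference. Chance flags about 1 in 20 groups of values in this way, and both genes come from 34 examined.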

How the results depend on the processing

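The 0 calls between KO and WT among the 34 genes held in all 18 alternatives. The 17 calls by age stayed between 13 and 25 over 19 alternatives, and 13 of those genes were called in every one. Dlat, Eno3 and Tpi1 each kept the call in 11 of the 19, and Ugp2 in 8. With the replicate block 0 genes were called between KO and WT, 13 by age and 6 in the interaction; it ended the 4 age calls named in the text and no other. The count of 5 in the interaction fell to 0 with no filter, 0 under quantile normalization, 0 in limma without trend and robust, and was 1 in limma-voom (a negative one); leaving out a library gave 0 to 7, with 0 without WT replicate 1 or WT replicate 2. The cause was not tested. The median KO minus WT of -0.20 was -0.51 in 5-month hearts alone and -0.26 to -0.03 when a library was left out; it was -0.076 under quantile normalization and -0.089 under total scaling without mitochondrially encoded genes. The median 14 minus 5 months of -0.08 was 0.047 under quantile normalization, 0.12 under total scaling without mitochondrially encoded genes, 0.19 in KO hearts alone and -0.28 in WT hearts alone; leaving out a library gave -0.28 to 0.19, the ends being without KO replicate 3 and without WT replicate 3. That total scaling also moved the median of all genes, to 0.22 by age and 0.08 for KO minus WT. Eno1 turned to 0.10 for KO minus WT without KO replicate 3, without WT replicate 3 and in 14-month hearts alone, and leaving out a library gave -0.61 to 0.10. The age comparison rests on 2 hearts of 5 months, and the interaction on 1 per genotype.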

Other observations

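Genes that bring glucose in and regulate its use were read by age beside 33.7% of all genes called, 17.7% higher and 16% lower. Of 4 glucose transporters, 2 were higher at 14 months and 0 lower. Slc2a4, the insulin-responsive transporter, had values of 5033 and 5249 in KO and 4958 and 4632 in WT at 14 months, against 2500 in KO and 3232 in WT at 5 months (log2 difference 0.80, SE 0.14, limma adjusted p = 0.0041). Slc2a1, the basal transporter, was higher by 1.04 (SE 0.25, limma adjusted p = 0.0150). Of 8 pentose phosphate genes only H6pd, the form of the endoplasmic reticulum, was called by age, at 0.86 (SE 0.12, limma adjusted p = 0.00205), a share of 12.5% that is under that of all genes. Tkt, transketolase, had values of 738, 1235 and 426 in KO hearts, against 384, 349 and 362 in WT hearts, with no overlap (log2 difference KO minus WT 1.00, limma adjusted p = 0.745).

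Of 20 regulators of glucose use, 4 were higher at 14 months and 1 lower (25.0% called, under the 33.7% of all genes). The muscle transcription factor Mef2d had values of 2906 and 2991 in KO and 2693 and 2867 in WT at 14 months, against 1644 in KO and 1025 in WT at 5 months (log2 difference 1.14, SE 0.15, limma adjusted p = 0.0015). Esrrb (0.92, limma adjusted p = 0.00158) and the hypoxia-inducible factor Epas1 (0.78, limma adjusted p = 0.00556) were higher too. Mlxipl, a glucose-responsive transcription factor, was the 1 regulator called in the interaction: 319 and 327 in KO, against 261 and 286 in WT, at 14 months, and 462 in KO, against 124 in WT, at 5 months (interaction -1.65, limma adjusted p = 0.0293).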
